A study of Mus musculus with 10 samples.

Results

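Melanocytes are the pigment cells of the skin, and their transcripts can be read in primary keratinocyte cultures as a sign of how much melanocyte RNA the cultures carried. The genes described here are 10 melanocyte genes, namely Tyr, Tyrp1, Dct, Pmel, Mlana, Mitf, Sox10, Trpm1, Ednrb and Kit. They were chosen by name, and every probe set annotated to only 1 of them was read, which gave 23 probe sets of the 45037 that are no array controls. The 10 genes stand among 18193 genes with a probe set of their own. The cultures were primary mouse keratinocytes labelled Sgpp1+/+ (WT) or Sgpp1-/- (KO). The product of Sgpp1 is a phosphatase that removes the phosphate of the signalling lipid sphingosine-1-phosphate. All cultures of both groups were kept for 3 to 4 days at 0.05 mM calcium with 8% fetal calf serum, a condition that holds mouse keratinocytes in a basal state. There were 5 WT arrays and 5 KO arrays, named here by their sample numbers, 1 to 5 for WT and 8, 9, 10, 21 and 23 for KO. The labels give no strain, coat colour, age or sex, nor how the gene was disrupted, and do not say whether each array holds 1 animal or a pool.

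The targeted gene did not read lower on the arrays labelled KO. The brightest of the 3 Sgpp1 probe sets read 6.25 to 8.33 on the WT arrays and 8.46 to 9.03 on the KO arrays (log2 signal), with a limma adjusted p of 0.102. WT and KO therefore stand throughout for the arrays labelled so. Of 9 keratinocyte markers 8 were measured, with means over the 10 arrays from 5.85 for Krt15 to 12.76 for Krt5. Krt5 and Krt14, the keratins of the basal layer, read 12.65 to 12.89 and 12.48 to 12.82 on the 10 arrays. Array medians lay between 5.02 and 5.17. WT 1 stood apart from the other arrays, with a mean correlation of 0.955 with them across all probe sets, against at least 0.967 for each other array. WT 1, WT 2 and KO 8 also had the highest signal of the poly-A RNAs that are spiked into the RNA before labelling, 10.72 to 11.34 against 9.86 to 10.39 on the other 7 arrays (mean log2 signal of 24 probe sets).

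Melanocytes arise from the neural crest and settle among the basal keratinocytes of the epidermis and in hair follicles. Sox10 and Mitf, 2 transcription factors, hold the lineage: Sox10 switches on Mitf, and Mitf in turn binds a short promoter element of the pigment genes. Tyr, Tyrp1 and Dct encode tyrosinase and its relatives, the enzymes that make melanin, and Pmel and Mlana encode proteins that build the melanosome, the organelle in which melanin is deposited. Kit and Ednrb are the receptors for stem cell factor and the endothelins, signals that keratinocytes and other skin cells give to melanocytes. Trpm1 encodes a cation channel of melanocytes and retinal bipolar cells.

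Promoter sequences from RefSeq (build GRCm38.p6) were found for 7 of the 10 genes, in 11 windows that each hold 250 bases before a transcript start and 50 after it. Pmel, Mlana and Sox10 had no entry. The letters CATGTG, the core of the element that Mitf binds in pigment genes, were searched on both strands. They occurred in 5 of the 11 windows, those of Dct, Tyr and Tyrp1 and both of Trpm1, and in 14.2% of all 32851 windows in the table. The longest run of letters common to Tyr, Tyrp1 and Dct before their starts was GTCATGTGCT, which contains CATGTG and was found in 0.186% of all windows. It was picked by comparing these 3 windows, so its presence in them is no finding. The stretches are printed 5′ to 3′ on the gene's strand, and their part in the array values of these genes was not tested. Capitals mark the 10 shared letters or, for Trpm1, CATGTG.
Tyr, chr7:87493513-87493575, minus strand: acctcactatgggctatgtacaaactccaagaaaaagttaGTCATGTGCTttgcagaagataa
Tyrp1, chr4:80834125-80834212, plus strand: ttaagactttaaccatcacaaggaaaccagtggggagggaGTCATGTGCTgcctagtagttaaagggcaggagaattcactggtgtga
Dct, chr14:118052339-118052438, minus strand: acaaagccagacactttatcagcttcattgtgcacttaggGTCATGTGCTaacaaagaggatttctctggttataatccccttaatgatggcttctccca
Trpm1, chr7:64153654-64153749, plus strand: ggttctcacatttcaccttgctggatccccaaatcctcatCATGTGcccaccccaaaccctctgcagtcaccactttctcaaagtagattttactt

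The capitals begin 23 bases before the start in Tyr, 48 in Tyrp1, 152 in Dct and 141 in Trpm1. No CATGTG was found in the windows of Mitf, Kit and Ednrb. The related letters CACGTG occurred in 1 of the 11 windows, of Trpm1, and in 7.15% of all windows. ACAAAG, letters that Sox factors can bind, occurred in those of Dct and Tyrp1 and in 18.7% of all. These are matches of letters in a window and were not tested as binding sites.

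The pigment enzyme genes varied strongly between arrays of the same genotype. A gene measured more than once is given by its brightest probe set, judged by the mean of all 10 arrays. All values are log2 signals made with RMA, on which 1 unit is a factor of 2. Tyr, encoding the enzyme that starts melanin synthesis, read 4.35, 5.65, 6.39, 5.72 and 7.87 on WT 1 to 5 and 5.98, 6.78, 6.61, 6.60 and 7.67 on KO 8, 9, 10, 21 and 23. Its range over the 10 arrays was 11.5-fold and lay wholly within WT. Tyrp1, encoding tyrosinase-related protein 1, read 6.996, 8.82, 10.59, 10.09 and 11.14 on the WT arrays and 9.20, 10.66, 10.58, 10.38 and 11.35 on the KO arrays, in the same order of arrays. It spanned 20.5-fold in all, 17.7-fold within WT and 4.46-fold within KO. Dct, encoding dopachrome tautomerase, read 7.28, 8.71, 10.004, 9.72 and 11.26 on the WT arrays and 8.99, 10.28, 10.12, 10.12 and 11.01 on the KO arrays. All 3 genes were lowest on WT 1, and within KO all 3 were lowest on KO 8 and highest on KO 23.

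The melanosome protein genes were lowest and highest on the same arrays. Pmel, encoding the fibril protein of the melanosome, read 7.38, 8.15, 9.12, 8.93 and 10.35 on the WT arrays and 8.89, 9.66, 9.63, 9.30 and 10.35 on the KO arrays. Mlana, encoding the melanosome protein MART-1, read 7.69, 8.52, 9.93, 9.63 and 10.57 on the WT arrays and 9.31, 9.999, 9.82, 9.96 and 10.61 on the KO arrays. WT 1 was again the lowest and WT 5 and KO 23 the highest, and the groups overlapped. The range was 7.85-fold for Pmel and 7.55-fold for Mlana.

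**Figure D1:**
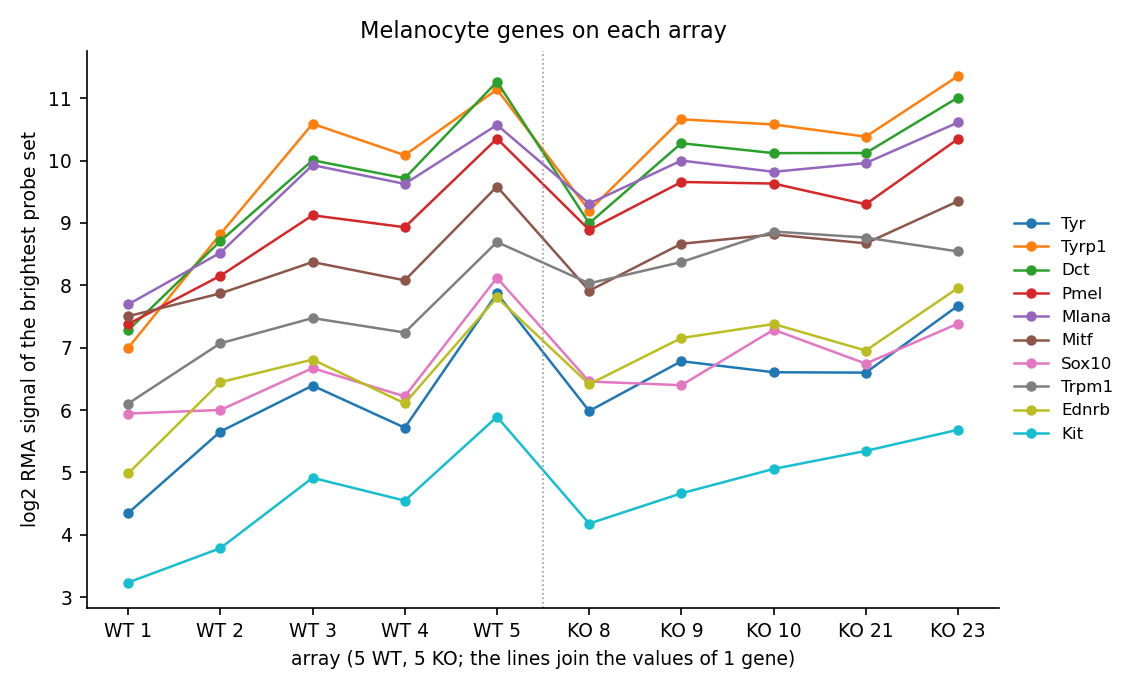
Log2 RMA signal (vertical axis) of the brightest probe set of each of the 10 melanocyte genes on the 5 WT and 5 KO arrays (horizontal axis), with lines joining the values of a gene. Every line is lowest on WT 1, and 9 of the 10 peak on WT 5 or KO 23.

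The transcription factor genes had smaller ranges in the same direction. Mitf read 7.50, 7.87, 8.37, 8.08 and 9.58 on the WT arrays and 7.91, 8.67, 8.81, 8.67 and 9.35 on the KO arrays, a range of 4.22-fold. A second Mitf probe set ranged only 2.69-fold, from 6.06 on WT 4 to 7.49 on WT 5, so the probe sets of this gene did not run alike. Sox10 read 5.94, 6.00, 6.67, 6.22 and 8.12 on the WT arrays and 6.46, 6.40, 7.29, 6.74 and 7.39 on the KO arrays. WT 5 lay above all other arrays for Sox10, and its range was 4.52-fold. The other Sox10 probe sets ranged 2.24-fold and 2.25-fold.

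The receptor and channel genes were also lowest on WT 1. Ednrb, the receptor for endothelins, read 4.98, 6.45, 6.81, 6.11 and 7.80 on the WT arrays and 6.41, 7.15, 7.38, 6.95 and 7.96 on the KO arrays. Kit, the receptor for stem cell factor, read 3.23, 3.78, 4.91, 4.55 and 5.89 on the WT arrays and 4.18, 4.66, 5.06, 5.34 and 5.68 on the KO arrays. Kit lay close to the background of the arrays. As a reference for signal without transcript, 80 probe sets of olfactory and vomeronasal receptor genes were used, whose means over the arrays had a median of 2.34 and a 95th percentile of 4.20. The Kit probe set lay above that percentile on 7 of the 10 arrays, and the other Kit probe set on 2. Trpm1 read 6.10, 7.07, 7.47, 7.24 and 8.69 on the WT arrays and 8.03, 8.37, 8.86, 8.77 and 8.54 on the KO arrays. In Trpm1, alone among the 10 genes, the highest array was KO 10, and 4 WT arrays lay below every KO array while WT 5 lay within the KO range.

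Of the 23 probe sets, 21 had a mean above the 95th percentile of the receptor probe sets, and 17 were above it on all 10 arrays. The exceptions in the mean were the second Kit probe set and 1 of the 4 Trpm1 probe sets, with means of 3.75 and 3.41. Because RMA can compress differences near the background, ranges of these dim probe sets may be understated, which was not tested. WT 1 was the lowest array for 19 of the 23 probe sets and for all 10 genes, whereas it was the lowest for 19.1% of all genes. WT 5 was the highest array for 15 probe sets and KO 23 for 7, and KO 8 was the lowest KO array for 19.

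The spread between arrays of 1 genotype was large for these genes beside that of others. The pooled SD within groups lay between 0.67 for Mitf and 1.29 for Tyrp1 (log2), against a median of 0.29 and a 95th percentile of 0.62 over all genes. This placed the 10 genes, by their brightest probe sets, between the 96.0th and the 99.6th percentile of all genes. Several of their other probe sets stood lower among all probe sets. The second Mitf probe set was at percentile 75.4, and the other Sox10 probe sets at 75.6 and 73.0. Those of Trpm1 lay between 85.5 and 90.6, and those of Ednrb at 88.7. The other probe sets of Tyr, Tyrp1 and Kit lay between 95.1 and 99.8. Among the 12693 genes with a mean above the receptor reference, the lowest of the 10 stood at percentile 95.04. Krt5 and Krt14 differed by much less between arrays, as their ranges above show. Not all keratinocyte markers were as steady. Krt15 read 5.06 to 6.96 and Trp63 10.03 to 11.47, with pooled SDs of 0.61 and 0.42. The pooled SDs of Itga6, Itgb4, Col17a1 and Perp lay between 0.11 and 0.28. In RNA from whole cultures, fewer melanocytes and less RNA per melanocyte cannot be told apart.

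The mean log2 signal of Tyr, Tyrp1, Dct, Pmel and Mlana was taken as a melanocyte index of each array. It was 6.74, 7.97, 9.21, 8.81 and 10.24 on WT 1 to 5, and 8.47, 9.48, 9.35, 9.27 and 10.20 on KO 8, 9, 10, 21 and 23. The index spanned 11.3-fold within WT and 3.30-fold within KO, and the KO range lay inside the WT range. Its mean was 8.59 ± 1.32 in WT and 9.35 ± 0.61 in KO (SD, n = 5 each), a difference of 0.76 that is smaller than the pooled SD of 1.03.

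By their brightest probe sets, the 10 genes ran in parallel across the arrays. After the mean of each group was subtracted, the Pearson correlation over the 10 arrays between a pigment gene and the index of the other 4 was 0.952 for Tyr, 0.968 for Tyrp1, 0.997 for Dct, 0.982 for Pmel and 0.983 for Mlana. Spearman's rho was 0.927, 0.988, 0.988, 1.0 and 0.976 in the same order. The 5 genes outside the index also went with it, at r = 0.925 for Mitf, 0.815 for Sox10, 0.898 for Trpm1, 0.943 for Ednrb and 0.955 for Kit, with rho of 0.855, 0.806, 0.697, 0.818 and 0.915. Over all genes the 5th and 95th percentiles of r with the index were -0.811 and 0.779, so Sox10 lay little above the upper one. These are descriptions over arrays that share 1 normalisation, and no p is given. Without WT 1 and WT 5, the arrays farthest from the median index, r stayed between 0.794 and 0.988 for 8 genes and was 0.653 for Sox10 and 0.587 for Trpm1. The second Mitf probe set and 1 each of Trpm1 and Ednrb followed the index less closely over the 10 arrays. Their r was 0.482, 0.436 and 0.498, and their rho 0.164, 0.382 and 0.321. The remaining probe sets that are not the brightest of their gene had r between 0.747 and 0.982. Between pairs of the 10 genes r ran from 0.721 to 0.985 with a median of 0.921. Of the 8 keratinocyte markers measured, 6 had r below 0 with the index, and r ran from -0.886 for Trp63 to 0.839 for Krt14. The median r over all genes was also below 0, at -0.150. Without WT 1, WT 2 and KO 8 the r of Krt14 was -0.535. The 8 markers then ran from -0.906 to -0.041, against a median of 0.077 over all genes.

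Per unit of the index, Tyrp1 and Dct changed by 1.29 and 1.18, Tyr by 0.91, and Pmel and Mlana by 0.80 and 0.81, each against the other 4 genes of the index. The slopes of Ednrb, Kit, Trpm1, Mitf and Sox10 against the index were 0.76, 0.78, 0.61, 0.60 and 0.57. Mitf and Sox10 had the smallest slopes of the 10, though Mitf lay close to Trpm1 (0.601 against 0.609). The slopes of the genes inside and outside the index have different references.

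Within each genotype the index was lowest where the poly-A spike-in signal was highest. Over the 10 arrays, with group means removed, the index and the spike-in signal had r = -0.865 and rho = -0.782, and r = -0.689 without WT 1 and KO 8. Within the other 7 arrays r was -0.330 and rho -0.393, and the index still ranged 2.68-fold there, from 8.81 on WT 4 to 10.24 on WT 5. The members also ran in parallel in those 7 arrays, with a median r of 0.916 between pairs and a range of 0.535 to 0.992. With the index, Trpm1 had r = 0.684 there and the other members 0.859 to 0.992. The 95th percentile over all genes was 0.852 in these arrays. Whether the spike-in signal had a part in the low index of WT 1, WT 2 and KO 8 was not tested. Y-linked genes read high on WT 3, WT 5, KO 10 and KO 23. The index was 9.21 and 10.24 on the WT arrays with this signal and 6.74 to 8.81 on the 3 without it. In KO it was 9.35 and 10.20 with the signal and 8.47 to 9.48 without it, so there the arrays with and without Y-linked signal overlapped.

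**Figure D2:**
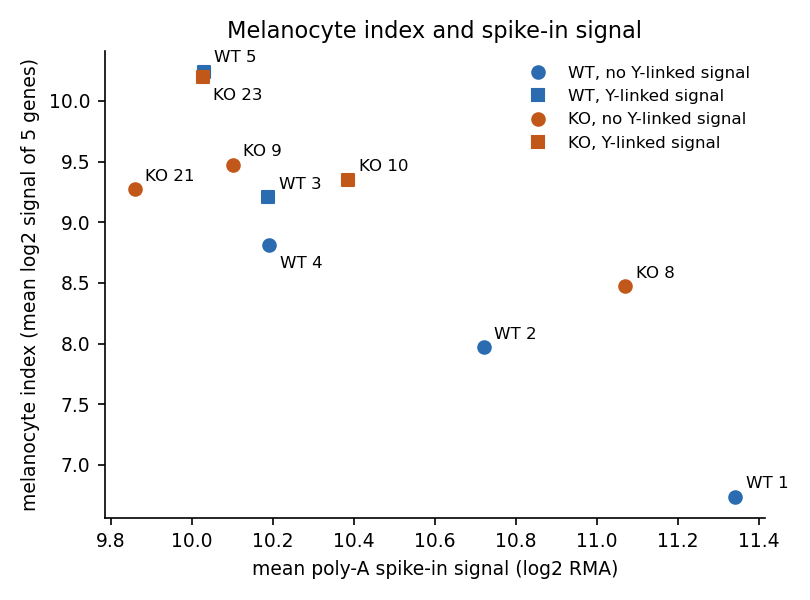
Melanocyte index (vertical axis, mean log2 signal of 5 genes) against the mean poly-A spike-in signal (horizontal axis, log2) for each array, coloured by genotype, with squares for arrays with Y-linked signal. WT 1, WT 2 and KO 8 lie at the right and lowest, and the other 7 arrays range from 8.81 to 10.24 in the index at spike-in signals of 9.86 to 10.39.

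The comparison of KO with WT asks whether the melanocyte genes differed by genotype. All 10 had a higher mean in KO, and none passed the test. Of 18193 genes 2.65% were called by limma at an adjusted p under 0.05 (two-sided, Benjamini-Hochberg over all genes), and 0 of the 10 were. At an unadjusted p under 0.05 limma passed 1 of the 10, Trpm1, and 13% of all genes. Over the probe sets 1.27% were called, 1.13% higher and 0.142% lower, and 0 of the 23 members. The smallest limma adjusted p of the 23 was 0.198. Limma gave 4 of them an unadjusted p under 0.05, all of Trpm1 or Ednrb, so these are not 4 separate observations. The share of all probe sets under that unadjusted p was not counted. The median log2 difference of the 10 genes was 0.72, against -0.01 over all genes. The genes vary together across arrays, so their shared direction is not 10 separate observations. The groups overlapped in every one of the 23 probe sets, while they did not overlap in 3.14% of all probe sets and 4.38% of all genes.

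Among the enzyme genes, Tyr differed by 0.73 (SE 0.52), or 1.66-fold with a 95% interval of 0.764 to 3.61, and its limma adjusted p was 0.650. Tyrp1 was 9.53 ± 1.65 in WT and 10.43 ± 0.78 in KO (SD, n = 5 each), a ratio of 1.88 with an interval of 0.695 to 5.07. Dct was 9.39 ± 1.49 and 10.10 ± 0.72, a ratio of 1.64 with an interval of 0.663 to 4.04. For Pmel and Mlana the ratios were 1.71 (0.867 to 3.39) and 1.59 (0.804 to 3.16). Each interval includes both no difference and a more than 3-fold higher level in KO, so at 5 arrays a group a difference of that size was not excluded.

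Mitf was 8.28 ± 0.79 in WT and 8.68 ± 0.51 in KO, and Sox10 was 6.59 ± 0.90 and 6.85 ± 0.46 (SD, n = 5 each). Their ratios were 1.32 (0.777 to 2.24) and 1.2004 (0.682 to 2.11), the smallest of the 10. Ednrb and Kit had ratios of 1.67 (0.874 to 3.198) and 1.43 (0.742 to 2.74). The limma adjusted p of these 4 genes lay between 0.541 and 0.877. These values are of the brightest probe sets. A second Ednrb probe set, with a mean of 6.65, differed by 0.90 with a 95% interval of 0.28 to 1.52 (log2). Its limma adjusted p was 0.216 over all probe sets. The third Ednrb probe set differed by 0.45 (limma adjusted p = 0.708).

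**Figure D3:**
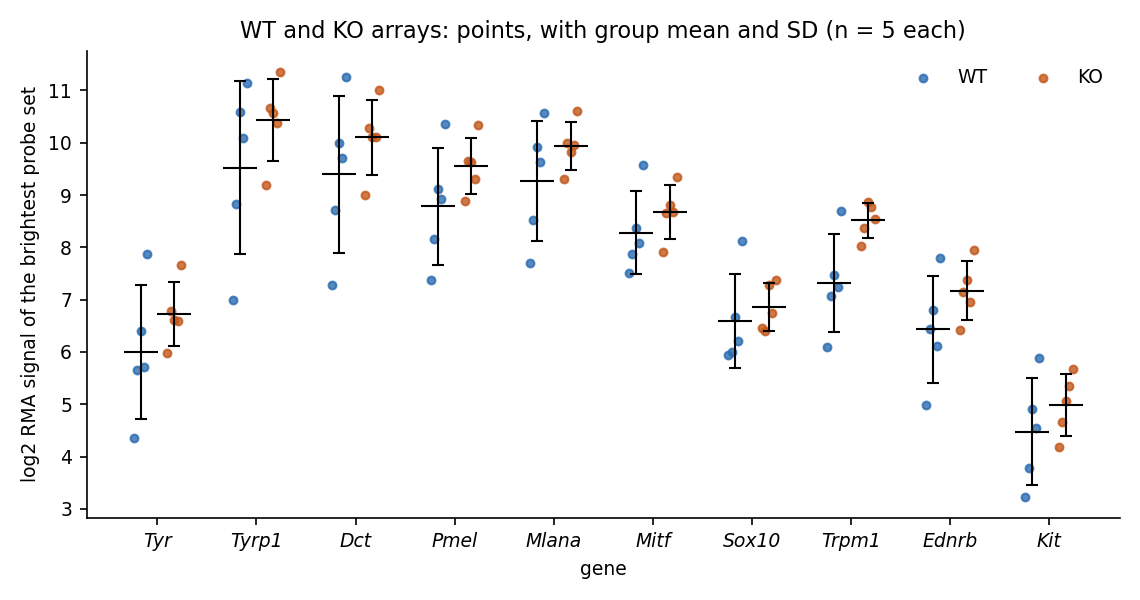
Log2 RMA signal (vertical axis) of the 10 genes (horizontal axis) on each WT and KO array, with the group mean and SD as bars (n = 5 each). The groups overlap for every gene, and the WT points spread more widely than the KO points.

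Trpm1 had the largest difference of the 10. It was 7.32 ± 0.93 in WT and 8.51 ± 0.33 in KO (SD, n = 5 each), a ratio of 2.29 with a 95% interval of 1.32 to 3.98 and a limma adjusted p of 0.137. Without WT 5, the WT array with the highest index, the difference was 1.54 and its limma adjusted p 0.0095, past the threshold. With array quality weights it passed as well, at 0.0192. With the index added to the fit, a choice made after the values were seen, the difference was 0.73 (limma adjusted p = 0.0889), and with the poly-A spike-in signal as a covariate 0.98 (0.0786). The other Trpm1 probe sets had differences of 0.87, 0.68 and 0.35 (limma adjusted p = 0.198, 0.451 and 0.805 over all probe sets). No other member gene passed in any of the fits run.

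The size of the difference depended on which arrays entered. Without WT 1 the median of the 10 differences was 0.28, and without WT 1, WT 2 and KO 8 it was 0.17, from -0.05 for Sox10 to 0.83 for Trpm1. The index difference of 0.76 was 0.30 without WT 1 and 0.15 without the 3 arrays, and 0.40 with the spike-in signal as a covariate. Without WT 5 it was larger, at 1.17, and Tyr, Tyrp1 and Dct then differed by 1.201, 1.31 and 1.18. With the arrays that have Y-linked signal as a block it was 0.76, since each group holds 2 such arrays.

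**Figure D4:**
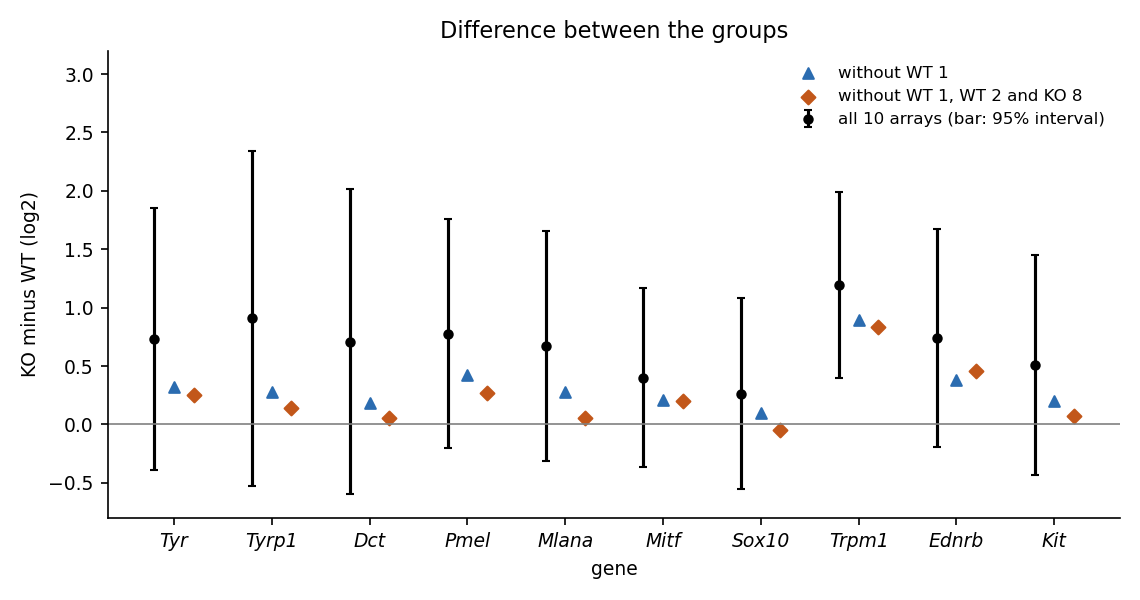
KO minus WT (vertical axis, log2) for each gene (horizontal axis) with all 10 arrays and its 95% interval, and without WT 1 or without WT 1, WT 2 and KO 8. The differences of 0.26 to 1.198 lie between -0.05 and 0.83 without the 3 arrays. Each gene is shown by its brightest probe set, and of these only that of Trpm1 has an interval that lies above 0.

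Other genes of pigment cells and pigment granules were read as a list of 35, of which 33 were measured. Limma called 2 of them higher and 0 lower in KO, against 2.30% and 0.346% of all genes, and the median difference was 0.19. The 2 were Rab38 and Lyst. Rab38, a small GTPase that carries pigment enzymes to the melanosome, read 7.66, 8.61, 8.49, 8.16 and 8.49 on the WT arrays and 9.16, 9.28, 9.23, 9.10 and 9.25 on the KO arrays. Each KO array lay above each WT array, the rise was 1.90-fold, and its limma adjusted p was 0.0122. With the melanocyte index as a covariate the difference was 0.79 with a limma adjusted p of 0.0209, while with the mean of both Rab38 probe sets it was 0.78 and 0.0721. Lyst lost its call with the index as a covariate, at a difference of 0.83 and a limma adjusted p of 0.0884. Lyst, which regulates lysosome-related organelles, rose 2.06-fold with a limma adjusted p of 0.0497, and lost its call without any single one of WT 1, WT 4, KO 9, KO 10, KO 21 and KO 23 (0.0789 to 0.141). Atp7a, the copper transporter that supplies tyrosinase, and Erbb3, a receptor of the melanocyte lineage that epithelial cells also carry, did not pass, with differences of 0.76 and 0.78 (limma adjusted p = 0.0642 and 0.0845). Their calls turned on the setting: of the 20 alternatives run for each, Atp7a passed in 6 (limma adjusted p = 0.0071 to 0.0493) and Erbb3 in 5 (0.0145 to 0.0437).

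Genes of the list differed in how closely they went with the index. Their median r was 0.647 over the 10 arrays, against -0.150 over all genes, and 8 of 33 had r above 0.9, against 0.946% of all genes that are not members. The 8 were Mcoln3, a cation channel of melanosomes and lysosomes, at 0.975, Gpnmb, a melanosome glycoprotein, at 0.968, Bace2, the protease that trims Pmel, at 0.963, Cdh1 at 0.946, Hps5 at 0.940, Pax3, a lineage factor that acts with Sox10 on Mitf, at 0.925, Erbb3 at 0.915 and Mlph, which links melanosomes to the motor protein myosin Va, at 0.901. Mcoln3 read 4.21 on WT 1 and 8.04 on WT 5, and 5.95 on KO 8 and 8.17 on KO 23. Cdh1, the epithelial cadherin, is also a gene of the keratinocytes themselves and ranged only from 10.63 to 11.73. Without WT 1, WT 2 and KO 8 the list's median r was 0.730, and 9 genes had r above 0.9, of which 4 were among the 8. Slc45a2 and Oca2, encoding transporters of the melanosome, and the melanocortin receptor gene Mc1r had r of 0.830, 0.665 and 0.831 over the 10 arrays and of 0.956, 0.902 and 0.899 over the 7.

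By the same measure, the 10 genes outside the members most like the index were Rapgef2 at r = 0.987, then Mcoln3, Msantd2, 2700097O09Rik, Gpnmb, Ctss, Lrp6, Dnajc13, Lmbrd1 and Zfp445 down to 0.966. Of these 10, 2 are on the pigment list. They differed widely in size, with slopes from 0.17 for Dnajc13 to 1.40 for Ctss. Only Zfp445 was among the 10 most like the index in the 7 arrays, and 47 genes had r above 0.9 in both sets of arrays, of 172 in the 10 arrays and 448 in the 7. The 10 in the 7 arrays were Nampt, Blnk, Aif1, Nrros, Slc35g1, Clcn5, Iigp1, Zfp445, Pmp2 and Foxred2, at r from 0.998 down to 0.986. None of them is on the pigment list. Over the 10 arrays Blnk, Aif1, Nrros and Pmp2 had r of only 0.237, 0.367, 0.317 and 0.202.

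**Figure D5:**
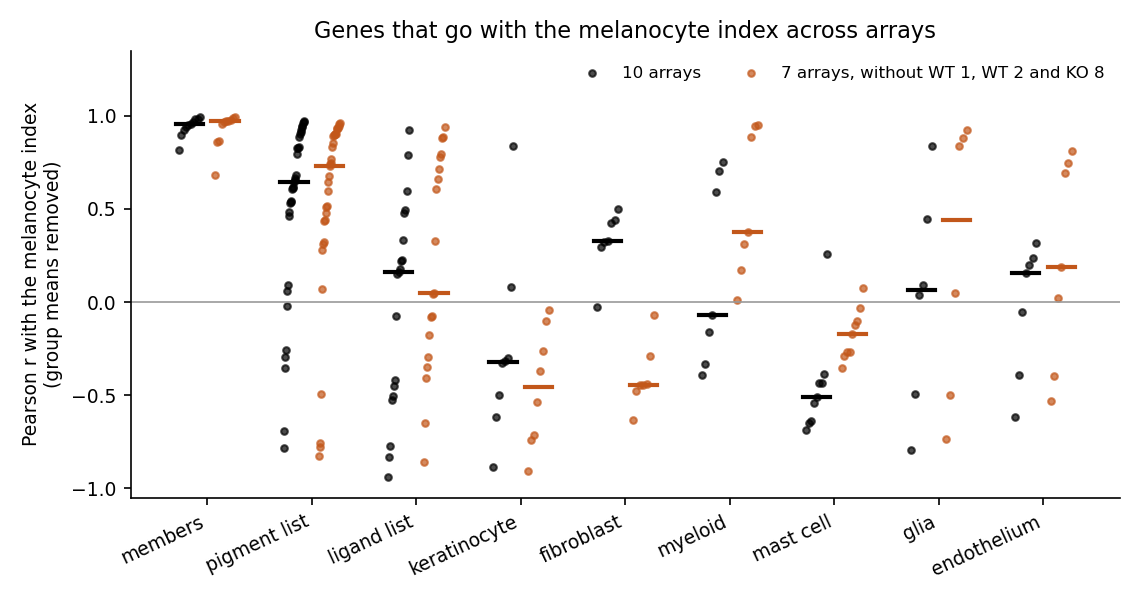
Pearson r with the melanocyte index (vertical axis, group means removed) of the genes of each list (horizontal axis), over 10 arrays and over 7 arrays, with the median as a line. All members lie above 0.8 in the 10 arrays, the pigment list has medians of 0.647 and 0.730, and keratinocyte and mast cell genes have medians below 0.

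Some members are also genes of other cells, and those cells' markers were read beside them. Kit and Mitf are expressed by mast cells. Of 9 mast cell markers, 4 read above the receptor reference on average. These were Gata2, the proteases Tpsb2 and Cma1, and Hdc, with means of 5.63, 5.24, 4.47 and 4.83. Cpa3, Mcpt4, Tpsab1, Fcer1a and Ms4a2 did not. The median r of the list with the index was -0.510, and it was -0.170 without WT 1, WT 2 and KO 8. The mean of the list lay between 3.50 and 4.01 in WT and between 3.57 and 3.82 in KO. The brightest, Gata2, read 5.34 to 6.33 and was highest on WT 1, where Kit was lowest. The median of the receptor probe sets was also highest on WT 1, at 2.61, and elsewhere ran from 2.23 on WT 3 to 2.38 on KO 8. The part of this background in the mast cell values of WT 1 was not tested.

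Sox10 and Ednrb are shared with Schwann cells. Of 9 glial markers 6 were measured and 4 read above the reference. Cdh19, a cadherin of the neural crest lineage, had r = 0.836, and Foxd3, Gfap, Mbp, Egr2 and Ncmap had r between -0.797 and 0.449. Over the 7 arrays r was 0.922 for Cdh19, 0.881 for Foxd3 and 0.836 for Mbp, and the median of the list was 0.442, against 0.065 over 10 arrays. The brightest was Egr2, a transcription factor that many cells induce, at 5.83 to 8.01. Ednrb is also expressed by endothelium, whose brightest of 7 markers, Pecam1, read 4.25 to 5.18, with a median r of 0.157 over the list and 0.186 over the 7 arrays. The 3 endothelial markers above the reference had a median r of 0.746 over the 7 arrays and 0.236 over 10.

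Fibroblast and myeloid genes varied between arrays too. Col1a1, a collagen of fibroblasts, read 12.48 on WT 3 and 12.21 on WT 4 but 8.76 on WT 5, the array with the highest index, and 8.11 on WT 1. The 7 fibroblast markers had a median r of 0.328 over 10 arrays and -0.444 over 7. Of the myeloid genes, Lyz2, encoding lysozyme, read 10.50 on WT 5 and 10.48 on KO 23 and 7.43 to 9.54 elsewhere, and Csf1r, the receptor of macrophage growth factor, read 7.25 and 6.37 there and 3.50 to 5.44 elsewhere. These 2 genes and Cd68 had r of 0.753, 0.592 and 0.706 with the index over 10 arrays and of 0.885, 0.950 and 0.945 over 7. The other 4 of the list did not go with it over 10 arrays: Cd74, H2-Aa, Cd207 and Ptprc had r of -0.392, -0.334, -0.161 and -0.071, and the median of the list was -0.071 over 10 arrays and 0.375 over 7. Cd207, the marker of Langerhans cells, read 2.62 to 3.47 and stayed below the receptor reference throughout. Of 7 myeloid markers 4 read above the reference, and the mean of the list lay between 4.70 and 5.67 in WT and between 4.597 and 5.59 in KO. Their part in the values of the members was not tested.

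Signals that act on melanocytes were read as a list of 22 genes, of which 19 were measured, and limma called 0 of them, with 3 at an unadjusted p under 0.05. Over all genes 2.65% were called and 13% had an unadjusted p under 0.05, so these counts are near the background. Their median r with the index was 0.164 and their median difference 0.06. The ligands of the 2 receptors among the members did not pass: Kitl, encoding stem cell factor, read 5.57 to 6.43 in WT and 5.88 to 6.77 in KO, and Edn1, encoding endothelin 1, read 9.83, 9.14, 8.14, 8.86 and 10.43 on the WT arrays and 8.11, 7.93, 8.08, 7.58 and 9.21 on the KO arrays. The Edn1 difference was -1.10 (SE 0.40, limma adjusted p = 0.226). Edn2 and Edn3, encoding other endothelins, differed by 0.06 and -0.21 (limma adjusted p = 0.969 and 0.774). For the cytokine genes Lif and Csf2 the differences were -1.10 and -1.37 (limma adjusted p = 0.0867 and 0.123), and of the fits run they passed only the one without WT 3 (0.0051 and 0.0141). Adam10, a protease that sheds cell surface proteins, differed by 0.61 (limma adjusted p = 0.388).

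The count of genes called over the whole array was also read with the melanocyte index in the model, a fit likewise added with the values in view. Limma called 447 genes higher and 93 lower in this fit, against 419 and 63 without the covariate. Of the 482 genes called without it, 405 (84.0%) were called with it, which is 75.0% of the 540 called there.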

How the data were processed

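Total RNA (6 µg, Trizol) of 10 primary keratinocyte samples was labelled and hybridised to 1-colour Affymetrix mouse arrays, per the labels' protocols. The deposited values are log2 signals, and the submitters' processing notes name RMA, a method that corrects background, equalises the arrays and combines the probes of a set. No detection calls were used here. All 10 columns were used and 0 left out. Of 45101 probe sets, 64 are controls, 34945 have 1 gene, 932 several and 9160 none. KO minus WT was fitted with limma 3.58.1 (R 4.3.3, lmFit and eBayes, two-sided, Benjamini-Hochberg, threshold 0.05) on 18193 genes and on 45037 probe sets. SE is the moderated standard error. The fit was tested on simulated data. The p-values measure the spread between these samples, which may be technical. Sample numbers are not shared between the groups. The number of arrays limits the precision. The members, lists and alternatives were chosen with earlier results of these data known. Named genes are all members, the called genes of the pigment and signal lists or else the 4 of smallest p, the 10 genes most like the index, and the brightest marker of each other cell type; others, such as Slc45a2, Oca2, Mc1r, Lyz2 and Csf1r, were chosen after their values were seen.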

Additional observations from a re-analysis of the deposited data

Results flagged for a closer look

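In 3 of 64 groups of 5 arrays, 1 array lay far from the others, by a gap of more than 0.71 of the group's range; chance gives about 1 in 20. The second Mitf probe set read 7.49 on WT 5 against 6.06 to 6.43 on the other WT arrays. A Sox10 probe set read 7.01 on WT 5 against 5.85 to 6.05. The second Kit probe set read 4.79 on KO 23 against 3.82 to 4.02 on the other KO arrays. These are the arrays with the highest melanocyte index of their group.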

How the results depend on the processing

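No paired analysis was possible because the groups share no sample numbers. Leaving out each array in turn gave 264 to 419 genes called higher and 13 to 107 lower over all genes, 0 to 1 member genes and 0 to 1 member probe sets, 1 to 4 genes of the pigment list and 0 to 2 of the signal list. Lower calls numbered 38 when WT 2 was dropped, 19 for WT 4, 96 for KO 8, 13 for KO 9, 17 for KO 10, 20 for KO 21 and 107 for KO 23, and higher calls 264 for KO 9 and 273 for KO 10. Array weights gave 877 higher and 561 lower, 1 member gene (Trpm1) and 1 member probe set, 4 pigment genes and 1 signal gene. Centring on the receptor probe sets and an intensity trend each left 1 pigment gene called. The Sox10 difference turned to -0.0498 without WT 1, WT 2 and KO 8. The median r of Mitf, Sox10, Trpm1, Ednrb and Kit with the index was 0.867 without those 3 arrays and 0.822 with the spike-in signal removed, against 0.925. The cause of these changes was not tested. The other 9 members kept their direction in these alternatives. With the index in the fit, which is built from 5 of the members, the differences of Tyrp1, Dct, Mitf, Sox10 and Kit were -0.03, -0.15, -0.06, -0.17 and -0.08. The index difference ranged from 0.30 to 1.17 on leaving out each array. Leaving out probe sets ending in _s_at, _x_at or _a_at left no probe set for Sox10 and Kit. The alternatives with the Y-linked signal, the spike-in signal or the index in the fit were chosen after seeing the data.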
